A study of Mus musculus with 6 samples.

Results

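The genes described here are 34 members of the amino acid and stress response driven by ATF4, measured with RNA-seq in primary mouse macrophages cultured out of bone marrow. Members were chosen by gene symbol, from knowledge of the pathway and with earlier results of these data known. They were matched to the deposited Ensembl identifiers without their version numbers. All 34 matched, out of 56691 gene rows, and 33 passed the expression filter that left 14856 genes for testing. Stc2, a secreted glycoprotein hormone gene, did not pass it. On day 6 of culture the cells received 2 µM thiothixene, an antipsychotic that blocks dopamine receptors, or its solvent DMSO for 24 h. Marrow of 3 mice (a, b and c) was used, and by the mouse letter in the library titles each mouse supplied both treatments, which gives 3 thiothixene and 3 DMSO libraries. The labels name no genetic change in any group and give neither strain nor age, and each library is a culture from a single mouse.

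ATF4 is a transcription factor whose mRNA is translated more when the initiation factor eIF2 is phosphorylated, as happens when amino acids run short, when unfolded proteins build up in the endoplasmic reticulum, or when mitochondria are impaired. With partners such as C/EBP proteins it binds composite DNA elements and switches on genes for amino acid synthesis and import, for the charging of transfer RNA and for feedback on the response. ATF4 is controlled largely through translation, so its mRNA level is only one of the layers of its control.

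The C/EBP-ATF response element, searched as TGATGNAA on both strands (TTNCATCA on the opposite strand), was found in the RefSeq promoter windows of 9 of the 28 members that had a window. That is 32.1%, against 4.51% of all 27025 genes with a window. Windows ran from 250 bases before to 50 bases after a RefSeq gene start (GRCm38.p6). The following stretches of 28 bases are shown because they place the element beside genes of several role groups whose levels are described below. The capitals mark the matched element, read 5′ to 3′ on the gene's strand.
Trib3: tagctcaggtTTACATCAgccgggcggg
Chac1: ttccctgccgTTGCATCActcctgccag
Nupr1: aagggccagaTTGCATCAgacagggctt
Asns: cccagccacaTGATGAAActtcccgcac
Slc1a4: gcctcctgcgTTGCATCAtctccagcct
The Trib3 stretch lies at chr2:152344029-152344056 on the minus strand, and its element begins at base 15 counted from the RefSeq gene start. The Chac1 stretch lies at chr2:119351039-119351066 on the plus strand, with the element starting 193 bases before the gene start. The Nupr1 stretch lies at chr7:126625563-126625590 on the minus strand, 110 bases before it, and the Asns stretch at chr6:7693215-7693242 on the minus strand, 23 bases before it. The Slc1a4 stretch lies at chr11:20332700-20332727 on the minus strand, 4 bases before it. These distances refer to RefSeq starts, and starts in the GENCODE annotation differ. By GENCODE the Trib3 element lies before the start (152344032), and the Nupr1 and Asns stretches lie inside the gene (starts 126630861 and 7693254). The Slc1a4 stretch spans the GENCODE start (20332713). A match describes these letters only and does not show binding.

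Gene counts ran from 18548095 to 20264090 per thiothixene library and from 10472349 to 22297520 per DMSO library, lowest in the DMSO library of mouse b. Reads not aligned made up 4.98% in the thiothixene library of mouse a and 4.52% in the DMSO library of mouse c, against 1.85% to 2.31% in the other 4 libraries. The correlation of log2 CPM (counts relative to library size, after TMM scaling) across genes was 0.981 for thiothixene of mice b and c, against 0.825 for DMSO of the same mice. By these measures 3 libraries stood apart, thiothixene from mouse a and DMSO from mice b and c. The calls or directions of change of each gene list are given with and without them. Of the 9 tested macrophage markers 8 had log2 fold changes below 0 with all 6 libraries, and 0 passed. Lyz2 reached 11650 CPM in DMSO of mouse b, where Mertk and Mrc1 were lowest. The 10 macrophage markers summed to between 12050 and 14010 CPM after thiothixene and between 11970 and 19140 CPM after DMSO. Of these, Itgam, which encodes CD11b, was listed at 0 counts in 5 libraries and at 1 in thiothixene of mouse c, and 68.7% of its exonic bases lie in exons of the overlapping gene Gm49368. The 10 neutrophil markers summed to between 334.9 and 396.1 CPM after thiothixene and between 365.9 and 848.4 CPM after DMSO, the highest value in the DMSO library of mouse b. The 8 stromal markers summed to between 56.6 and 297 CPM after thiothixene and between 100.5 and 175 CPM after DMSO, with Lum at 0. The 7 lymphoid markers summed to between 0.0475 and 0.543 CPM after thiothixene and between 0.427 and 0.670 CPM after DMSO, with Ms4a1 at 0. The 4 erythroid markers summed to at most 0.0537 CPM after thiothixene and at most 1.12 CPM after DMSO, with Hbb-bs at 0. The 5 dendritic cell markers summed to between 7.41 and 11.6 CPM after thiothixene and between 5.25 and 13.8 CPM after DMSO. In bulk RNA, fewer cells of a type and less RNA per cell cannot be told apart.

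With all 6 libraries none of the 33 tested members differed between thiothixene and DMSO past the threshold. In edgeR's quasi-likelihood test with Benjamini-Hochberg adjustment over all tested genes, 0 members passed an adjusted p of 0.05, and the smallest adjusted p was 0.9998. Among all tested genes 0% passed. At an unadjusted p under 0.05 there were 0 members, against 1.72% of all tested genes, and 0 members passed in DESeq2 or limma-voom (0.00815% and 0% of their tested genes). Log2 fold changes were above 0 for 20 members and below 0 for 13 (18 above 0 with RLE scaling), with a median of 0.03, beside a median of -0.04 and 45.3% above 0 over all tested genes. The members ranged from -0.65 for Nupr1 to 0.42 for Chac1. The 95% interval of the fold change lay within a 2-fold difference either way for 17 members, so for the other members a 2-fold change in at least one direction was not excluded by these libraries. Groups did not overlap for 1 member of 33 (3.03%, beside 6.65% of all tested genes), Aldh18a1, which was higher after thiothixene (3.88% of all tested genes were). There were 0 members with every thiothixene value below every DMSO value (2.77% of all tested genes).

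**Figure D1:**
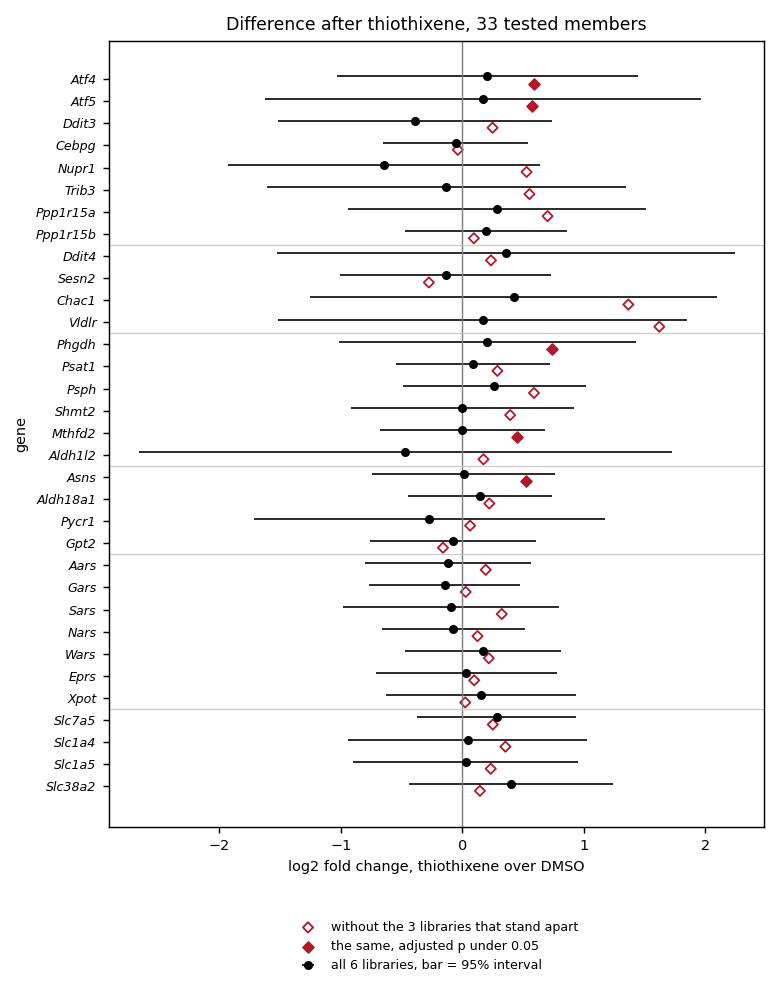
Log2 fold change (thiothixene over DMSO, horizontal axis) of the 33 tested members, grouped by role. Black points with bars are estimates from all 6 libraries with their 95% intervals, all of which cross 0; red diamonds are estimates without the 3 libraries that stand apart, filled for the 5 members with an adjusted p under 0.05.

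Of the 8 regulators 4 had log2 fold changes above 0 and 4 below, with a median of 0.06. Atf4 itself had 98.7, 255 and 250.0 CPM in thiothixene-treated macrophages (mice a, b and c in turn), against 168, 283 and 72.2 CPM in the DMSO libraries. The groups overlapped, with the lowest level of each group in a library with over 4% of reads not aligned. These were the 2 lowest libraries for 9 members (27.3%), beside 24.5% of all tested genes. Means were 201 ± 88.9 CPM after thiothixene and 175 ± 106 CPM after DMSO (SD, n = 3 each, as for all means below), and the log2 fold change was 0.21 (SE 0.54, 95% interval -1.04 to 1.45). Atf4 (ENSMUSG00000042406, GRCm38 chr15:80255184-80257541, plus strand) had the highest level per kilobase of exon of all members, 85.4 CPM per kb with thiothixene and 74.1 CPM per kb with DMSO. Within mice the thiothixene library was the lower in a and b and the higher in c, with log2 differences of -0.77, -0.15 and 1.79.

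Atf5, a related factor of the mitochondrial stress response, had 37.3, 103 and 129 CPM in thiothixene-treated macrophages (mice a, b and c in turn), against 78.2, 149 and 12.3 CPM in the DMSO libraries. The DMSO libraries thus spanned a 12.2-fold range and enclosed all thiothixene values. The log2 fold change was 0.17 (SE 0.78). Trib3, a pseudokinase that restrains ATF4, had 8.31, 11.4 and 16.5 CPM after thiothixene, against 9.56, 26.5 and 4.01 CPM after DMSO. It followed the same order of DMSO libraries, mouse b highest and mouse c lowest, with a log2 fold change of -0.13 (SE 0.64). Ppp1r15a, the stress-induced subunit that directs eIF2 dephosphorylation (GADD34), had 11.5, 21.3 and 16.5 CPM after thiothixene and 11.7, 23.6 and 5.46 CPM after DMSO.

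Ddit3, which encodes the pro-apoptotic factor CHOP, had 26.7, 27.5 and 29.5 CPM in thiothixene-treated macrophages (mice a, b and c in turn), against 24.1, 68.0 and 17.9 CPM in the DMSO libraries. The thiothixene values were close together, and the DMSO library of mouse b stood above all others. The log2 fold change was -0.39 (SE 0.49). Exons of other genes overlap 10.9% of Ddit3's exonic bases, among them a second annotated Ddit3 identifier with 0 counts in all libraries, so its counts are uncertain. Nupr1, a stress-induced chromatin protein gene, had 7.98, 10.4 and 9.67 CPM after thiothixene and 6.97, 28.7 and 8.45 CPM after DMSO, again with the DMSO library of mouse b highest. Its log2 fold change, -0.65 (SE 0.56, unadjusted p 0.281 in edgeR), was the lowest of the members, and without that library it was 0.28.

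The remaining regulators had narrower ranges. Cebpg, a C/EBP partner of ATF4, averaged 87.5 ± 11.4 CPM after thiothixene and 90.9 ± 8.61 CPM after DMSO, with a log2 fold change of -0.06 (SE 0.26). Ppp1r15b, the constitutive subunit that directs eIF2 dephosphorylation, averaged 125 ± 3.83 CPM after thiothixene and 109 ± 28.7 CPM after DMSO. Its DMSO library of mouse b was the lowest, opposite to Ppp1r15a. Exons of other genes overlap 11.4% of Ppp1r15b.

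**Figure D2:**
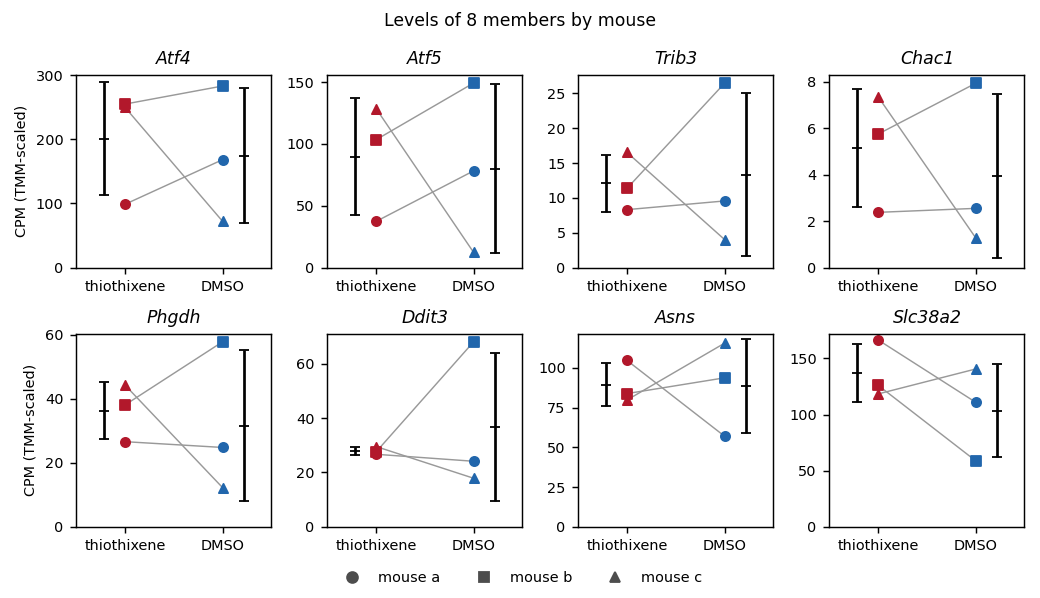
Levels of 8 members (CPM, vertical axes from 0) in thiothixene and DMSO libraries, with a line joining the libraries of a mouse and bars for the mean and SD of 3 libraries. DMSO of mouse b (squares) and of mouse c (triangles) lie at opposite ends for Atf4, Atf5, Trib3, Chac1, Phgdh and Ddit3, and Slc38a2 has the DMSO library of mouse b lowest.

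Of the 4 tested stress effectors 3 were above 0 and 1 below, with a median of 0.26. Chac1, an enzyme that degrades glutathione, had 2.38, 5.74 and 7.35 CPM in thiothixene-treated macrophages (mice a, b and c in turn), against 2.55, 7.93 and 1.28 CPM in the DMSO libraries. Its log2 fold change, 0.42 (SE 0.73, 95% interval -1.25 to 2.10), was the highest among the members, with the thiothixene library higher only in mouse c. Ddit4, an inhibitor of mTORC1 signalling, had 1.66, 5.37 and 3.65 CPM after thiothixene and 3.84, 4.13 and 0.427 CPM after DMSO, and the DMSO library of mouse c was the lowest of all. Sesn2, a leucine-binding inhibitor of mTORC1, averaged 38.8 ± 6.31 CPM after thiothixene and 42.7 ± 17.4 CPM after DMSO.

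Vldlr, a lipoprotein receptor gene, had 2.33, 1.56 and 1.48 CPM after thiothixene and 0.491, 1.45 and 2.82 CPM after DMSO, so the groups overlapped here too. Stc2, not tested, had 8, 4 and 8 counts in thiothixene-treated macrophages (mice a, b and c in turn), and 2, 8 and 20 counts in the DMSO libraries. These 2 genes were the lowest members per kilobase, Stc2 at 0.0637 CPM per kb with thiothixene and 0.118 CPM per kb with DMSO.

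Of 6 genes of serine and one-carbon synthesis 4 were above 0 and 2 below, with a median of 0.04, Shmt2 being at 0.00 and at -0.018 with RLE scaling. Phgdh, the first enzyme of serine synthesis, had 26.6, 38.1 and 44.3 CPM in thiothixene-treated macrophages (mice a, b and c in turn), against 24.8, 57.9 and 12.3 CPM in the DMSO libraries. The DMSO values lay on both sides of the thiothixene values, and the log2 fold change was 0.21 (SE 0.53). Psat1, the aminotransferase of the next step, had 135, 110 and 115 CPM after thiothixene and 92.5, 109 and 137 CPM after DMSO. It did not follow Phgdh, since its DMSO library of mouse c was the highest of that group. Psph, the phosphatase of the last step (10.4% of its exonic bases overlapped by Cct6a), averaged 23.2 ± 1.56 CPM after thiothixene and 19.4 ± 6.32 CPM after DMSO, with a log2 fold change of 0.26 (SE 0.33).

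Shmt2, which makes glycine and a one-carbon unit in mitochondria, averaged 74.5 ± 10.6 CPM after thiothixene and 74.6 ± 40.3 CPM after DMSO. Mthfd2, which carries that unit onward, averaged 107 ± 6.95 CPM after thiothixene and 107 ± 29.2 CPM after DMSO. The means of both enzymes were nearly equal between the groups, and the 95% interval of Mthfd2 ran from -0.68 to 0.68. Aldh1l2, a mitochondrial folate enzyme gene, had 1.66, 0.644 and 3.35 CPM after thiothixene and 1.79, 0.335 and 5.59 CPM after DMSO. It had the widest interval, from -2.66 to 1.73, and, among DMSO libraries, the reverse order to Phgdh, lowest in mouse b and highest in mouse c. Exons of another gene overlap 14.1% of its exonic bases.

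Of 4 genes for asparagine, proline and alanine synthesis 2 were above 0 and 2 below, with a median of -0.03. Asns, asparagine synthetase and a standard readout of amino acid shortage, had 105, 83.8 and 79.8 CPM in thiothixene-treated macrophages (mice a, b and c in turn), against 57.0, 93.7 and 115.5 CPM in the DMSO libraries. The groups overlapped and the log2 fold change was 0.01 (SE 0.33, 95% interval -0.74 to 0.77), or -0.006 with RLE scaling. Aldh18a1, the first enzyme of proline synthesis, had 38.4, 38.3 and 43.3 CPM after thiothixene and 35.1, 36.2 and 37.2 CPM after DMSO. It was the only member higher with thiothixene in 3 of 3 mice (3.03% of members, beside 7.49% of all tested genes; 0 members were lower in 3 of 3, beside 6.87%), and its log2 fold change of 0.15 (SE 0.26) did not pass the test. Pycr1, a proline-forming reductase gene, averaged 1.47 ± 0.0758 CPM after thiothixene and 1.80 ± 0.967 CPM after DMSO. Gpt2, mitochondrial alanine aminotransferase, averaged 17.9 ± 1.41 CPM after thiothixene and 18.9 ± 2.99 CPM after DMSO.

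Genes that charge transfer RNA or export it had the narrowest range of fold changes among the role groups. Of 7 members 3 were above 0 and 4 below, with a median of -0.07. Their log2 fold changes lay between -0.15 for Gars and 0.17 for Wars, and all 7 intervals lay within a 2-fold difference. Aars, alanyl-tRNA synthetase, had 217, 226 and 230.0 CPM in thiothixene-treated macrophages (mice a, b and c in turn), against 200.3, 328 and 201 CPM in the DMSO libraries. The DMSO library of mouse b was the highest here and for Sars, seryl-tRNA synthetase, which had 139, 153 and 144 CPM after thiothixene and 119, 251 and 95.8 CPM after DMSO. Exons of a neighbour, Exosc6, overlap 14.3% of Aars. Nars, asparaginyl-tRNA synthetase, averaged 237 ± 14.8 CPM after thiothixene and 249 ± 26.1 CPM after DMSO.

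Wars, tryptophanyl-tRNA synthetase and also an interferon-induced gene, averaged 73.0 ± 3.76 CPM after thiothixene and 65.0 ± 14.8 CPM after DMSO. Eprs, the glutamyl-prolyl synthetase, and Xpot, the exporter of transfer RNA from the nucleus, had the opposite order of DMSO libraries to Sars. Xpot had 188, 142 and 153 CPM after thiothixene and 146, 90.9 and 197 CPM after DMSO.

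All 4 amino acid transporters had log2 fold changes above 0, from 0.03 for Slc1a5 to 0.40 for Slc38a2, with a median of 0.16, and none passed the test. Averaged over the 4, the deviation of log2 CPM from each gene's 6-library mean was 0.09, 0.02 and 0.24 in thiothixene of mice a, b and c, against -0.10, -0.17 and -0.09 in DMSO. The averages thus did not overlap although each gene's values did, and in each mouse thiothixene was higher for 2 of the 4 genes. How often averages of other sets of 4 genes do so was not tested. Slc38a2, the glutamine and alanine importer SNAT2, had 167, 126 and 118 CPM in thiothixene-treated macrophages (mice a, b and c in turn), against 111, 58.9 and 141 CPM in the DMSO libraries. The groups overlapped, and leaving out DMSO of mouse b its log2 fold change was 0.12. Slc7a5, the leucine importer LAT1, averaged 35.5 ± 5.93 CPM after thiothixene and 29.2 ± 3.78 CPM after DMSO (log2 fold change 0.28, SE 0.29). Slc1a5, the glutamine exchanger ASCT2, averaged 43.9 ± 11.1 CPM after thiothixene and 43.1 ± 19.8 CPM after DMSO. Slc1a4, the related ASCT1, averaged 5.49 ± 1.04 CPM after thiothixene and 5.32 ± 1.91 CPM after DMSO.

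The members varied more among DMSO libraries than among thiothixene libraries. The median SD of log2 CPM among members was 0.21 with thiothixene and 0.65 with DMSO, beside 0.30 and 0.66 over all tested genes. For 15 of 33 members (45.5%, beside 19.1% of all tested genes) the DMSO library of mouse b was the highest of the 6 and that of mouse c the lowest. Atf4, Atf5, Ddit3, Trib3, Ppp1r15a, Sesn2, Chac1, Phgdh and Shmt2 were among them. Averaged over members, the deviation from each gene's 6-library mean was -0.06, 0.10 and 0.20 in thiothixene-treated macrophages (mice a, b and c in turn), and -0.17, 0.31 and -0.37 in the DMSO libraries. The regulators alone stood at 0.79 in DMSO of mouse b and at -0.89 in DMSO of mouse c. Within mice, thiothixene was higher for 21 members in mouse a, 10 in mouse b and 21 in mouse c.

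**Figure D3:**
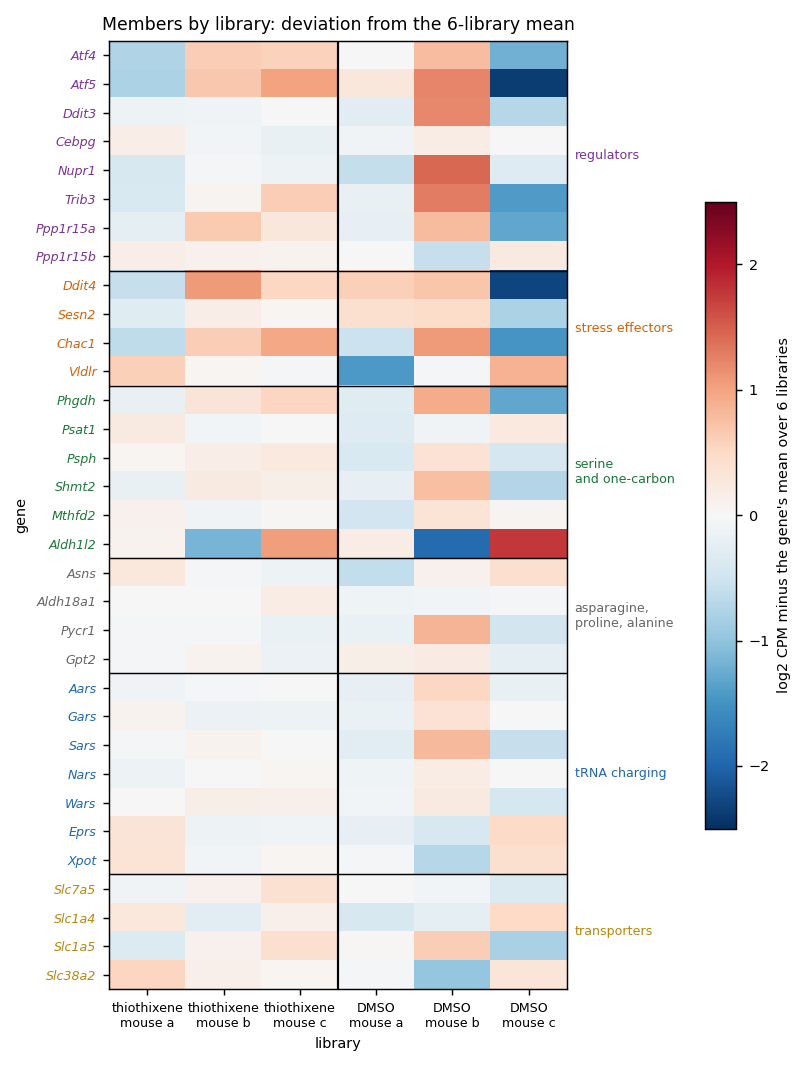
Deviation of log2 CPM from each gene's mean over 6 libraries (colour), for the 33 tested members by role (rows) in thiothixene and DMSO libraries (columns). The DMSO columns of mice b and c carry the strongest colours and are of opposite sign for 15 members as highest and lowest library. The transporter rows at the bottom are the sole role group whose average is higher in all 3 thiothixene columns than in all 3 DMSO columns. In each mouse, however, thiothixene was higher for 2 of the 4 transporters.

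Exon length and GC content moved with this split. The 14 members over 1 log2 unit higher in the DMSO library of mouse b than in that of mouse c had a median of 2500 exonic bases and 57.0% GC. The 3 members over 1 log2 unit lower there, Xpot, Slc38a2 and Aldh1l2, had a median of 7503 exonic bases and 46.5% GC. Over all tested genes the same subsets had medians of 2660 and 5706 exonic bases and 54.9% and 44.6% GC. The summed neutrophil markers, too, were highest in DMSO of mouse b. Single markers differed, with Retnlg highest in DMSO of mouse c and Cxcr2 lowest in DMSO of mouse b. The part of length, GC content and these markers in the split was not tested. With offsets for length and GC content in each library, a setting added after the data were seen, 0 members passed and 19 were above 0.

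**Figure D4:**
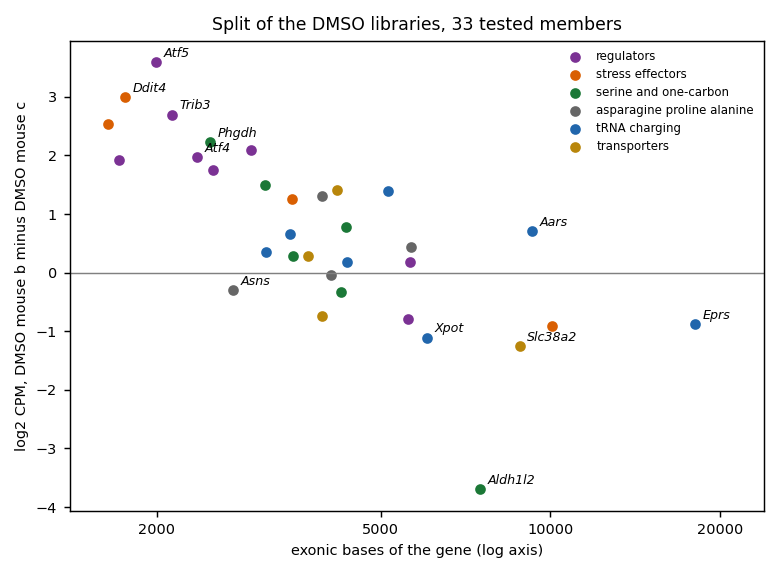
Log2 CPM in DMSO of mouse b minus DMSO of mouse c (vertical axis) against exonic bases (horizontal log axis) for the 33 tested members, coloured by role. Short genes such as Atf5, Ddit4, Trib3 and Phgdh lie above 0, and the longer Xpot, Slc38a2 and Aldh1l2 lie below -1. Others go the other way, such as Asns (2735 bases, -0.30) and Aars (9282 bases, 0.705), and Eprs (18102 bases) lies at -0.88.

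Without the 3 libraries that stand apart, thiothixene from mice b and c was set against the lone DMSO library of mouse a. Treatment and mouse thus cannot be told apart, and the spread of the lone library was taken to equal that of the pair. That pair had the highest correlation of any pair of libraries (0.981) and was kept partly by that measure. Its spread may therefore be too low, and the adjusted p of this fit too small. In that edgeR fit 5 of 33 members passed, all higher with thiothixene (15.2%, beside 4.02% of 15807 tested genes called higher and 2.97% called lower). Atf4 had a log2 fold change of 0.59 (adjusted p 0.000562), Phgdh 0.74 (0.00719), Asns 0.53 (0.0132), Atf5 0.58 (0.0161) and Mthfd2 0.45 (0.0269), all adjusted p from edgeR. With these libraries 30 members were above 0 and the median was 0.25, beside 0.01 over all genes. In the same fit 4 of 9 tested macrophage markers, Adgre1, Csf1r, Mertk and Mrc1, were called lower, and the 6 tested stromal markers were above 0 with 0 called. The part of these in the members' calls was not tested. The calls rest on that choice of libraries, since leaving out any single library in turn gave 0 called members. Without the DMSO library of mouse b 29 members were above 0, with a median of 0.19, and without that of mouse c 15 were, with a median of -0.08. Without the DMSO library of mouse a 15 were above 0 and the median was -0.03. With library quality weights in limma-voom 28 members were above 0, with a median of 0.21, and 0 passed (0.168% of all tested genes did).

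Other genes of the pathway were taken from lists drawn up from knowledge of it, with earlier results of these data known. Of 13 tested kinase and initiation factor genes that act on eIF2, 4 were above 0 and 9 below, 0 passed, and the median was -0.12. Eif2ak4, the kinase GCN2 that senses uncharged transfer RNA, had 68.6, 59.6 and 57.1 CPM in thiothixene-treated macrophages (mice a, b and c in turn), against 49.8, 28.8 and 44.8 CPM in the DMSO libraries. The groups did not overlap, and the log2 fold change was 0.58 (SE 0.30, unadjusted p 0.0876 in edgeR). Eif2b1 and Eif2b2, subunits of the exchange factor for eIF2, were at -0.33 (SE 0.29) and -0.55 (SE 0.48). Of the 13, 0 were called without the 3 libraries that stand apart.

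Of 13 tested further targets of ATF4 or CHOP, 6 were above 0 and 7 below, with a median of -0.03, and 0 passed. Levels of 5 of them (38.5%) were higher in all 3 thiothixene than in all 3 DMSO libraries, beside 3.88% of all tested genes. This list was drawn up with earlier results of these data known, so the comparison of shares is not independent of them. The 5 were Slc7a11, Vegfa, Gadd45a, Slc7a1 and Atf3, the last 2 named after their values were seen. Slc7a11, the cystine importer, had 13.9, 13.2 and 12.2 CPM in thiothixene-treated macrophages (mice a, b and c in turn), against 3.48, 2.90 and 5.97 CPM in the DMSO libraries. Its log2 fold change was 1.66 (SE 0.40, unadjusted p 0.00305 in edgeR), higher in 3 of 3 mice. Atf3, a stress-induced factor downstream of ATF4, had 282, 276 and 283 CPM after thiothixene and 171, 231 and 210 CPM after DMSO, so the lowest thiothixene value was above the highest DMSO value (log2 fold change 0.46, SE 0.26).

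Vegfa, an angiogenic growth factor gene, averaged 37.5 ± 9.25 CPM after thiothixene and 21.8 ± 3.28 CPM after DMSO, with a log2 fold change of 0.78 (SE 0.31). Gadd45a, a growth arrest gene, averaged 23.3 ± 1.97 CPM after thiothixene and 13.5 ± 5.56 CPM after DMSO, at 0.79 (SE 0.38). Slc7a1, an arginine and lysine importer gene, averaged 101 ± 7.04 CPM after thiothixene and 69.2 ± 17.3 CPM after DMSO, at 0.55 (SE 0.29). These genes differ from Gdf15, a stress-induced cytokine gene named after its values were seen, whose groups overlapped. Gdf15 had 52.1, 239 and 192 CPM after thiothixene and 66.3, 241 and 23.8 CPM after DMSO, the same library order as Atf4. Without the 3 libraries that stand apart, 6 of the 13 further targets were called by edgeR (46.2%), all higher, beside 6.99% of all tested genes called in either direction. They were Atf3, Slc7a11, Eif4ebp1, Gdf15, Gadd45a and Vegfa. Eif4ebp1 changed sign, with a log2 fold change of -0.37 with all 6 libraries and 0.55 without the 3 libraries. Slc3a2, the partner chain of Slc7a5 and Slc7a11 and likewise named after its values were seen, averaged 410.4 ± 98.6 CPM after thiothixene and 528 ± 287 CPM after DMSO, at -0.36 (SE 0.42).

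The 14 other cytosolic tRNA synthetases gave 2 above 0 and 12 below, with a median of -0.17 and 0 called. Yars, Farsb and Kars, those of smallest p, were at -0.28 (SE 0.32), -0.26 (SE 0.31) and -0.28 (SE 0.39). Their mean deviation from each gene's 6-library mean was -0.061, -0.075 and 0.003 in thiothixene of mice a, b and c, against -0.171, 0.329 and -0.026 in DMSO, highest in DMSO of mouse b. Without the 3 libraries that stand apart, 10 of the 14 were above 0, with a median of 0.12. Of the 13 other folate cycle genes 8 were above 0 and 0 passed with all 6 libraries, and 6 were above 0 without the 3 libraries, with a median of -0.001. Gldc, the glycine-cleaving decarboxylase, had 19, 17 and 13 counts in thiothixene-treated macrophages (mice a, b and c in turn), against 1, 1 and 0 counts in DMSO-treated ones. The groups did not overlap at these low counts, and its unadjusted p was 0.00792 in edgeR. Tyms, which acts in thymidylate synthesis, was at -0.42 (SE 0.34).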

How the data were processed

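The authors deposited raw counts of reads by gene, a table per library with 56691 gene rows. Per the submitters' processing notes, which give no roles, the tools were STAR 2.7.11b, Trim Galore 0.6.10, FastQC 0.11.8 and DESeq2 1.44, with mm10. The sources used do not give the strand setting, the counter or the annotation release, so reads of overlapping or antisense genes may be assigned differently from what a stranded count would give. Reads that the counter gave to no feature made up 43.1% to 44.3% of all reads listed per library, assigned or not. Where these reads lay is not given. The 5 rows that name no gene stayed out of library sizes and tests.

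Symbols, positions and exonic bases came from GENCODE vM21 (GRCm38), where 52073 identifiers matched without version numbers. Promoter windows came from RefSeq (GRCm38.p6). The 28 members with a window had 31 windows. The test was edgeR 4.0.16 (R 4.3.3), its robust quasi-likelihood fit after filterByExpr and TMM, with only treatment in the model, and Benjamini-Hochberg adjustment at 0.05 over 14856 genes. SE was taken from the fold change and its F statistic. The 95% intervals used the total degrees of freedom of that gene, residual plus the prior that edgeR estimates across genes. Log2 CPM used a prior count of 2. Alternatives were the mouse as a block, RLE scaling, other filters, DESeq2 1.42.0, limma 3.58.1 and leaving out libraries; GC and length offsets (splines with 5 degrees of freedom) were added after the data were seen.

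The library titles name mouse a, b or c in both groups, so libraries of the same mouse were taken as pairs. The 2 libraries of a mouse, each taken as its deviation from its group mean, had correlations of -0.131 (a), 0.318 (b) and -0.301 (c). In simulated data for 14856 genes in this comparison, edgeR recovered 0 of 50 genes made to differ by 1 log2 unit, 27 of those differing by 2, and 49 each of those differing by 3 and by 4. Members and lists were chosen with earlier results of these data known. All members are described, and of each further list the 3 tested genes of smallest p, except for a few items that are not reported here. Atf3, Slc7a1, Gdf15, Slc3a2, Eif4ebp1 and Cebpb were named after their values were seen.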

Additional observations from a re-analysis of the deposited data

How the results depend on the processing

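Under the replicate block by mouse 0 genes and 0 members passed, as without it, and with the GC and length offsets 0 passed with and without the block. The count of called genes was 1 without a low-count filter, 2 in DESeq2, 25 with library quality weights and 1105 without the 3 libraries that stand apart, where 5 members passed. Leaving out single libraries gave 0 called genes, 15 to 29 members above 0 and medians from -0.083 to 0.19. Within mouse b 10 members were above 0. Over all settings with a test, 441 comparisons of members kept direction and side of the threshold, 83 changed sign and 5 gained a call, of which 1, Mthfd2 without the 3 libraries, also changed sign. The thinnest library, with 10472349 counts, and members with few counts, such as Stc2, Pycr1, Aldh1l2 and Vldlr, limit precision.

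Eif4ebp1, described above, changed sign without the 3 libraries. The following log2 fold changes also had the opposite sign to the value from all 6 libraries, and the cause was not tested. With the replicate block they were Trib3 0.16, Mthfd2 0.034 and Sars 0.035. They were Shmt2 -0.018 and Asns -0.006 with RLE, Mthfd2 0.034 without a filter, Shmt2 -0.002 with CPM of at least 1 in 3 libraries and -0.012 in DESeq2. In limma-voom they were Trib3 0.38, Mthfd2 0.043, Pycr1 0.011 and Sars 0.048. With quality weights they were Ddit3 0.18, Nupr1 0.41, Trib3 0.43, Mthfd2 0.33, Pycr1 0.071, Aars 0.13, Sars 0.28, Nars 0.067, Manf 0.21, Eif2b2 0.023, Clpp 0.032, Hspe1 0.30, Slc3a2 0.06, Yars 0.19, Farsb 0.05, Kars 0.23 and Tyms 0.008. Without the 3 libraries they were Ddit3 0.25, Nupr1 0.53, Trib3 0.55, Mthfd2 0.45, Aldh1l2 0.17, Pycr1 0.064, Aars 0.19, Gars 0.028, Sars 0.33, Nars 0.12, Manf 0.38, Cebpd 0.017, Eif2b1 0.007, Eif2b2 0.081, Clpp 0.20, Hspe1 0.43, Yars2 0.055, Slc3a2 0.17, Yars 0.33, Farsb 0.18, Kars 0.39 and Tyms 0.017. With the offsets they were Trib3 0.12, Vldlr -0.017, Mthfd2 0.033, Eprs -0.10 and Slc1a4 -0.12, and with the offsets and the block Trib3 0.17, Mthfd2 0.058, Eprs -0.078 and Slc1a4 -0.017.

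Leaving out single libraries moved the sign of the following log2 fold changes, given as the range over those fits. Regulators were Atf4 -0.16 to 0.75, Atf5 -0.34 to 0.99, Ddit3 -0.71 to 0.41, Cebpg -0.16 to 0.031, Nupr1 -0.98 to 0.28, Trib3 -0.56 to 0.83 and Ppp1r15a -0.092 to 0.94. Effectors were Ddit4 -0.16 to 0.74, Sesn2 -0.44 to 0.068 and Vldlr -0.26 to 0.94. Enzymes were Phgdh -0.18 to 0.97, Psat1 -0.026 to 0.26, Shmt2 -0.28 to 0.52, Mthfd2 -0.19 to 0.19, Aldh1l2 -1.16 to 0.75, Asns -0.22 to 0.25, Pycr1 -0.52 to 0.23 and Gpt2 -0.20 to 0.009. Charging genes and transporters were Aars -0.23 to 0.16, Gars -0.25 to 0.013, Sars -0.35 to 0.44, Nars -0.13 to 0.01, Eprs -0.13 to 0.34, Xpot -0.091 to 0.44, Slc1a4 -0.12 to 0.39 and Slc1a5 -0.26 to 0.41. Other genes were Manf -0.57 to 0.024, Cebpd -1.18 to 0.18, Eif2b2 -0.87 to 0.18, Clpp -0.86 to 0.31, Hspe1 -0.61 to 0.16, Dnajb9 -0.66 to 0.12, Slc3a2 -0.62 to 0.17, Yars -0.48 to 0.005 and Kars -0.48 to 0.21.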

Other observations

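Stress pathways that feed into ATF4 or run beside it gave 0 calls in edgeR with all 6 libraries. Of 19 endoplasmic reticulum folding and unfolded protein genes 7 were above 0, with a median log2 fold change of -0.11. Hyou1, a chaperone gene, averaged 201 ± 35.7 CPM after thiothixene and 157 ± 10.1 CPM after DMSO (log2 fold change 0.36, SE 0.27). Manf, which encodes a secreted endoplasmic reticulum stress protein, averaged 124 ± 7.77 CPM after thiothixene and 156 ± 63.3 CPM after DMSO, and the co-chaperone gene Dnajb9 was at -0.40 (SE 0.42). Of 8 mitochondrial stress genes 2 were above 0. Oma1, the protease that starts the mitochondrial signal to ATF4, was higher with thiothixene in 3 of 3 mice, at 0.29 (SE 0.28), while the groups overlapped. Clpp, a matrix protease subunit gene, was at -0.53 (SE 0.53) and Hspe1, a chaperonin gene, at -0.35 (SE 0.39). Without the 3 libraries that stand apart, 16 of the 19 folding genes were above 0, against 7 with all 6 libraries, and the median was 0.192. Of the 8 mitochondrial stress genes 5 were above 0 there, against 2 with all 6 libraries, and the median was 0.118. The directions of these lists thus depended on the choice of libraries. In that fit Hyou1 was at 0.44, and Manf (0.38) and Hspe1 (0.43) had a sign opposite to that from all 6 libraries.

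Of 17 mitochondrial tRNA synthetases 7 were above 0, with a median of -0.13. Sars2 and Yars2 were at -0.53 (SE 0.48) and -0.30 (SE 0.33), and 0 of the 17 were called without the 3 libraries. Of 12 tested close relatives of members 3 were above 0, with a median of -0.34. Sesn1, a sestrin induced by p53 and FOXO factors, had 146, 112 and 89.6 CPM in thiothixene-treated macrophages (mice a, b and c in turn), against 195, 160 and 164 CPM in DMSO-treated ones. Sesn1 was lower in all 3 thiothixene libraries, at -0.58 (SE 0.29), without passing the test (unadjusted p 0.079 in edgeR), whereas its relative Sesn2 overlapped between groups. Sesn3 was at -0.71 (SE 0.52) and Cebpd, a C/EBP factor gene, at -0.78 (SE 0.60). Without the 3 libraries the log2 fold changes of Sesn1 and Sesn3 were -0.95 and -1.14. In that fit 8 of the 12 relatives were above 0, with a median of 0.069. Among these was Cebpb, named after its values were seen. Cebpb was at -0.076 with all 6 libraries, where its groups overlapped.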
